A study of Mus musculus with 12 samples.

Results

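Expression of 10 genes of lipid droplet and triglyceride turnover was followed through the differentiation of mouse hepatoblasts in vitro. The set comprised Plin2, Plin3, Plin5, Cideb, Cidec, Pnpla2, Pnpla3, Dgat1, Dgat2 and Mttp. They were chosen by name for their roles in storing, breaking down and exporting neutral lipid, with earlier results of these data known. All 10 were found among the 53715 genes listed in the count table. All 10 also passed the filter of more than 10 counts in any library, which left 17779 genes for testing. Cidec passed it only through the Diff. and mature hepatocytes, since its highest hepatoblast count was 5.

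RNA sequencing covered 12 libraries, 4 per group, all from C57BL/6JOlaHsd mice. Hepatoblasts were taken from embryonic livers at E14.5 as the Dlk1+ fraction of a magnetic cell separation, with the livers of several embryos pooled per isolation in the study's methods. Diff. hepatocytes were such hepatoblasts after 4 days on fibronectin in a differentiation medium with serum, insulin-transferrin-selenium supplement, dexamethasone and Matrigel. Mature hepatocytes came from male mice 8 to 12 weeks old by collagenase perfusion and were not cultured. Diff. hepatocytes share the embryonic day and isolation method of hepatoblasts and differ from them in culture. The time, matrix and medium of that culture change together. Mature hepatocytes differ from both other groups in age and isolation method, and from Diff. hepatocytes also in culture, so these cannot be told apart. No sex is stated for the embryos, so sex cannot be told apart from these either. The labels name no transgene or deletion in any group.

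Lipid droplets are the cell's stores of triglyceride and sterol ester, a neutral core under a single layer of phospholipid. Proteins of the perilipin family coat this surface and control the access of lipases, CIDE proteins pass lipid between droplets and into lipoproteins, the last step of triglyceride synthesis is carried out by DGAT enzymes, and adipose triglyceride lipase starts the breakdown. In the hepatocyte, triglyceride that is not stored or oxidised leaves the cell in very low density lipoprotein (VLDL), which the microsomal triglyceride transfer protein loads with lipid.

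The libraries held 19581551 to 25216977 counts each. Levels are given as CPM, counts scaled to library size with TMM factors, or as CPM per kilobase of exon (RPKM) where genes are compared with each other. A gene was called where edgeR's quasi-likelihood test gave a Benjamini-Hochberg adjusted p under 0.01 and the log2 fold change exceeded 1 in either direction. The study states that the 4 libraries of a group are biological replicates, so that p-values measure the spread between them. Sums over marker lists set the mature group apart, while the ranges of hepatoblasts and the Diff. group overlapped. The 8 hepatocyte markers summed to 34820 to 58810 CPM in hepatoblasts and to 55880 to 64980 CPM in the Diff. group. In the mature group they summed to 117100 to 164000 CPM. The 5 hepatoblast markers include Dlk1, on which the cells were sorted. They summed to 41800 to 70020, 37820 to 44140 and 65.9 to 109 CPM in the same order of groups. Diff. hepatocytes therefore still held hepatoblast markers (Afp at 18609 ± 2091 CPM, SD, n = 4). The sums hide a fall, since 4 of these 5 markers were called lower than in hepatoblasts and 0 higher. Dlk1 fell most, from a mean of 3523 to 94.2 CPM (log2 -5.2), and Afp, Igf2 and Gpc3 fell by less (log2 -1.08, -1.72 and -1.75). The mean of H19 went the other way, from 14919 to 22234 CPM, and was not called. Since whole populations were sequenced, a lower level from fewer cells of a type and one from less RNA per cell cannot be told apart.

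Both the Diff. and the mature hepatocytes held more mRNA than hepatoblasts for Plin2, Plin5, Cidec and Pnpla2. Against hepatoblasts, 4 of the 10 genes were called higher in Diff. hepatocytes and 0 lower, where 28.9% of all genes tested were called (14.9% higher, 14% lower), and the groups of 5 of the 10 genes did not overlap, against 57.5% of all genes. In mature hepatocytes against hepatoblasts, 6 were called higher and 1 lower, where 44.8% of all genes were called (20.1% higher, 24.7% lower), and the groups of 8 did not overlap, against 66% of all genes. With library totals in place of TMM factors this split was 4 higher and 2 lower. The counts against hepatoblasts include Cidec, called higher and without overlap in both comparisons. It passed the filter only through the groups where it was high, so it is counted as a description. Diff. and mature hepatocytes differed in 2 of the 10 genes, with Pnpla3 higher and Cideb lower in Diff. hepatocytes, where 35.8% of all genes were called (20.2% higher, 15.6% lower). With library totals 2 were higher and 1 lower, where 5500 and 1776 of all genes tested were. The groups of 7 did not overlap in that comparison, against 61.6% of all genes.

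In Diff. hepatocytes against hepatoblasts the 10 genes had a median log2 fold change of 0.49, beside -0.01 over all genes. The median was 1.62 in mature hepatocytes against hepatoblasts, beside -0.15, and -0.07 in Diff. against mature hepatocytes, beside 0.09. The comparisons against hepatoblasts share the same 4 hepatoblast libraries, so their values are set side by side and were not correlated.

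**Figure D1:**
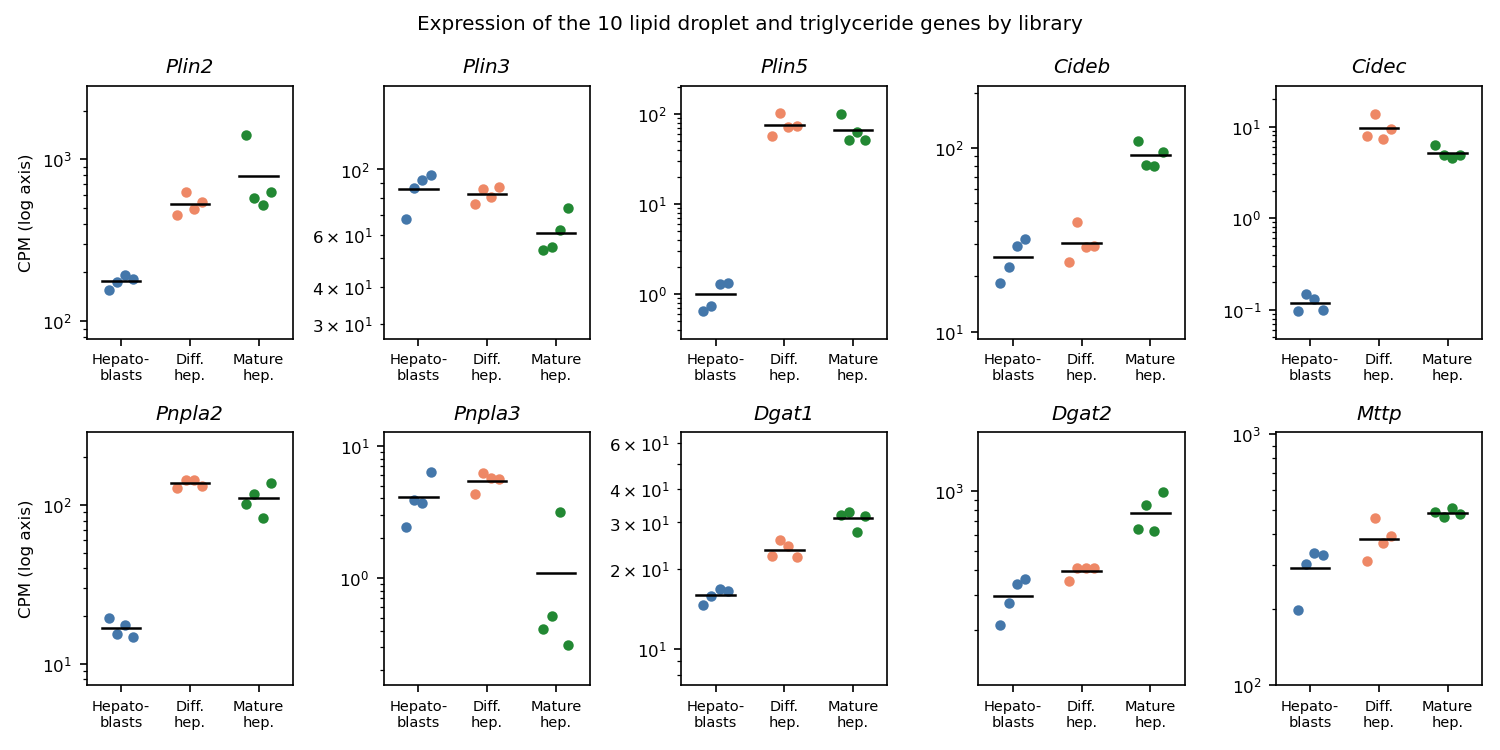
CPM on a log axis for each of the 10 genes, with 1 point per library in order of replicate number and a bar at the mean of the 4 libraries of each group. Plin5, Cidec and Pnpla2 show hepatoblasts far below both hepatocyte groups, Cideb separates mature hepatocytes from the rest, and Pnpla3 is lowest in mature hepatocytes except for library 3, at 3.15 CPM.

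The promoters of the perilipins are shown because Plin2 and Plin5 were called higher in both hepatocyte groups and Plin3 in neither. The sequences are the 250 bases before the RefSeq gene start on GRCm38.p6, written along the gene's strand and without bases annotated as exon. Windows of 250 bases were matched for 8 of the 10 genes, 10 windows in all, with Dgat1 and Dgat2 not matched. Cidec and Plin5 were each matched more than once. Motifs were counted over the full windows with exon bases included, and the Mttp window lies wholly within exons. Capitals mark AGGTCA, the core that many nuclear receptors bind, and the CCAAT box, each read on both strands so that TGACCT and ATTGG are the same motifs on the other strand. The Plin2 window is chr4:86670061-86670309, the Plin5 window chr17:56117597-56117798 and the Plin3 window chr17:56290512-56290761, all on the minus strand, and the last lies within the longer GENCODE gene model.
Plin2 promoter: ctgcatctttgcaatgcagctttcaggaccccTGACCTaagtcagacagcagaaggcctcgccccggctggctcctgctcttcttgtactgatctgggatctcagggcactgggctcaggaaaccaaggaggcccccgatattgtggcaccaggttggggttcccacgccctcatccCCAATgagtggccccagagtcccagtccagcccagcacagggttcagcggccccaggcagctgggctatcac
Plin5 promoter: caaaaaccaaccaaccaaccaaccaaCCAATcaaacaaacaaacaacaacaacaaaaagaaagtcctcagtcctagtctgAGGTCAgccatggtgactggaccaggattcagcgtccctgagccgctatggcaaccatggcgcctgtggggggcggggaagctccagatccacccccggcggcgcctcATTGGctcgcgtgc
Plin3 promoter: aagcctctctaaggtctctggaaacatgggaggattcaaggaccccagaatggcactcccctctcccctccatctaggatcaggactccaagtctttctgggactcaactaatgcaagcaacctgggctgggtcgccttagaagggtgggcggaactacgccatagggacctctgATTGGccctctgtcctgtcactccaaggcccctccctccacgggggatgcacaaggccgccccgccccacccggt
AGGTCA lay 218 bases before the start of Plin2 and 170 bases before that of Plin5 and was in 2 of the 10 windows, where 14.0% of 32851 promoters of the same length held it. CCAAT was in 4 of the 10 windows (Plin2, Plin3, Plin5 and Pnpla3), where 33.8% of all promoters held it. TATAAA was in 1 window, that of Cideb, and in 12.4% of all promoters. A direct repeat of AGGTCA with a single base between (DR1), the E-box CACGTG, the sterol element TCACNCCAC and the palindromic glucocorticoid response element were in 0 of the 10 windows and in 0.0335%, 6.02%, 1.05% and 0.387% of all promoters. The matches describe letters only, and no binding was measured.

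Plin2 (ENSMUSG00000028494, chr4:86648386-86670060, minus strand, GRCm38) encodes the perilipin that coats droplets in most cells and is the main perilipin of the liver. It stood at 156, 175, 193 and 183 CPM in hepatoblast libraries 1 to 4, at 454, 631, 493 and 544 CPM in Diff. hepatocytes, and at 1419, 579, 524 and 629 CPM in mature hepatocytes. Every hepatocyte library lay above every hepatoblast library, while the hepatocyte groups overlapped and mature library 1 stood far above the other mature libraries. Plin2 rose 3-fold in Diff. hepatocytes against hepatoblasts (log2 fold change 1.58 ± 0.27, SE, edgeR adjusted p = 0.000197). In mature hepatocytes it rose 4.45-fold (log2 2.15 ± 0.27, edgeR adjusted p = 8.67e-06), with a range of 1.70 to 2.30 when each library was left out in turn. Diff. and mature hepatocytes differed by -0.57 ± 0.26 on the log2 scale, a difference that was not called (edgeR adjusted p = 0.0712) and that spanned -0.73 to -0.13 when each library was left out, the smallest without mature library 1.

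Plin5 (ENSMUSG00000011305, chr17:56111601-56117596, minus strand), the perilipin of oxidative tissues that tethers droplets to mitochondria, was almost silent in hepatoblasts. It measured 0.645, 0.746, 1.30 and 1.33 CPM in the hepatoblast libraries, 56.8, 103, 72.5 and 75.0 CPM in the Diff. libraries, and 99.6, 51.4, 63.4 and 51.8 CPM in mature hepatocytes. The hepatoblast libraries stood apart from all others, and the hepatocyte groups overlapped over most of their ranges. The log2 fold change was 6.26 ± 0.32 in Diff. hepatocytes (76.6-fold, edgeR adjusted p = 4.86e-09) and 6.05 ± 0.32 in mature hepatocytes (66.2-fold, edgeR adjusted p = 1.59e-09). Between Diff. and mature hepatocytes it was 0.21, with a 95% interval of -0.30 to 0.72 (edgeR adjusted p = 0.453).

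Plin3 (ENSMUSG00000024197, chr17:56277476-56292873, minus strand) encodes a perilipin that moves between the cytosol and newly formed droplets. Its levels were 68.2, 86.4, 92.2 and 95.8 CPM in the hepatoblast libraries, 76.6, 86.2, 80.4 and 87.2 CPM in the Diff. libraries, and 53.6, 54.6, 62.4 and 73.8 CPM in mature hepatocytes. Diff. hepatocytes lay within the hepatoblast range, and the mature libraries reached into it from below. Against hepatoblasts the log2 difference was -0.05 in Diff. hepatocytes (95% interval -0.32 to 0.21, edgeR adjusted p = 0.731) and -0.49 in mature hepatocytes (-0.75 to -0.22, edgeR adjusted p = 0.00288), and neither was called. With library totals the latter was -1.33 and was called.

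Within the 3 perilipins, per length, the shares of Plin3 and Plin5 differed between the groups, given here as a description. Plin3 made up 30.7 ± 1.55% of the perilipin reads per kilobase in hepatoblasts (SD, n = 4), 10.5 ± 1.03% in Diff. hepatocytes and 6.81 ± 2.62% in mature hepatocytes. Plin5 made up 0.643 ± 0.176%, 17.4 ± 1.78% and 12.2 ± 2.30%. Plin2 was the most abundant perilipin in each group, at 68.7 ± 1.66%, 72.1 ± 0.861% and 81.0 ± 4.37%. The ratio of Plin5 to Plin2, which does not depend on the scaling between libraries, ranged from 0.00695 to 0.0122 in hepatoblasts, from 0.210 to 0.275 in Diff. hepatocytes and from 0.118 to 0.203 in mature hepatocytes. The 3 ranges did not overlap, so that Diff. hepatocytes held the most Plin5 for their Plin2 (1.61-fold above mature hepatocytes, two-sided exact permutation p = 0.0286, 0.0381 after Benjamini-Hochberg adjustment over 12 ratio comparisons). This is the smallest p that 4 against 4 libraries can give.

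**Figure D2:**
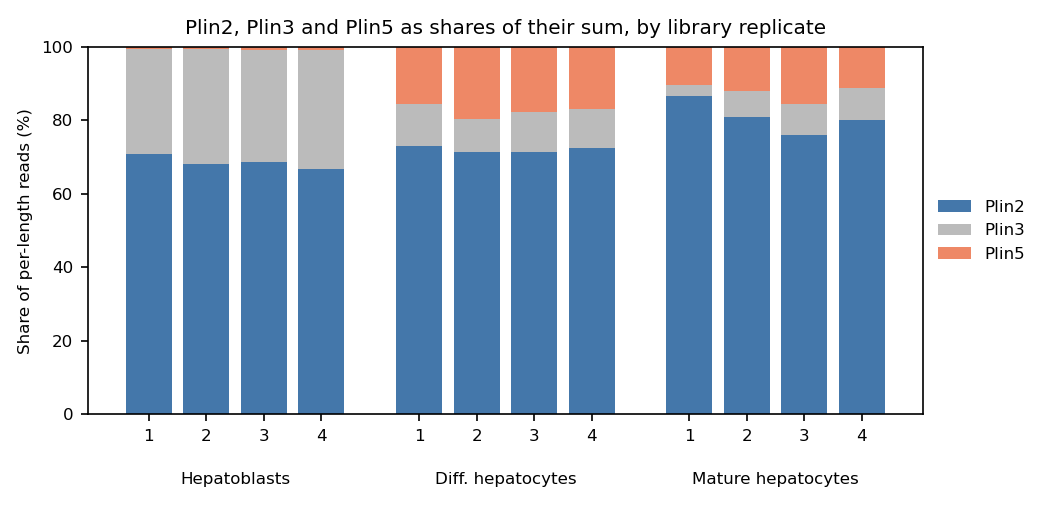
Reads per kilobase of Plin2, Plin3 and Plin5 as shares of their sum (percent), with 1 stacked bar per library. Plin3 has a mean share of 30.7% in hepatoblasts, 10.5% in Diff. and 6.81% in mature hepatocytes, and Plin5 takes 17.4% and 12.2% in the hepatocyte groups.

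Cidec (ENSMUSG00000030278, chr6:113424634-113435760, minus strand) encodes the CIDE protein that enlarges droplets by passing lipid between them. Its counts in hepatoblasts were 3, 5, 4 and 3, or 0.0967, 0.149, 0.130 and 0.0994 CPM. In Diff. hepatocytes it measured 7.87, 13.9, 7.37 and 9.42 CPM and in mature hepatocytes 6.24, 4.94, 4.55 and 4.84 CPM. Hepatoblasts stood apart from both hepatocyte groups, and every Diff. library lay above every mature library. The ratio of summed scaled counts was 80.8 in Diff. hepatocytes against hepatoblasts (95% interval 48.7 to 145) and 42.8 in mature hepatocytes (25.6 to 77.3), intervals that cover counting error only. No p is given against hepatoblasts, since the gene passed the filter only through the groups where it was high. Diff. hepatocytes lay above mature hepatocytes by 0.91 ± 0.21 on the log2 scale (edgeR adjusted p = 0.00167), short of the fold change threshold, and the difference was called without Diff. library 3 (1.01), without mature library 1 (1.01) or with library totals (1.44).

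Cideb (ENSMUSG00000022219, chr14:55754050-55758458, minus strand) encodes the CIDE protein of liver and intestine that supplies lipid to VLDL. It measured 18.4, 22.5, 29.3 and 31.8 CPM in the hepatoblast libraries, 23.9, 39.6, 29.1 and 29.1 CPM in the Diff. libraries, and 109, 80.9, 80.1 and 95 CPM in mature hepatocytes. Hepatoblasts and Diff. hepatocytes overlapped, and all mature libraries stood above both. Cideb rose 3.57-fold in mature hepatocytes against hepatoblasts (log2 1.84 ± 0.19, edgeR adjusted p = 1.14e-06), a call lost with library totals (0.99, just under the threshold), and was 2.99-fold lower in Diff. than in mature hepatocytes (log2 -1.58 ± 0.19, edgeR adjusted p = 6.9e-06). In Diff. hepatocytes against hepatoblasts the log2 difference was 0.26, with a 95% interval of -0.14 to 0.66, and -0.05 with library totals. Exons of Nop9 on the opposite strand cover 76.3% of the exons of Cideb, and 66.9% of its 75-base sequences occur in another gene on either strand, so that the level of Cideb is uncertain where counting ignored strand. Nop9 itself measured 32.0 ± 4.34, 23.1 ± 1.14 and 28.4 ± 5.19 CPM in the 3 groups (SD, n = 4) and was called in none of the 3 comparisons. The part of this overlap in the values of Cideb was not tested.

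The ratio of Cidec to Cideb per length joined these patterns. It ranged from 0.00250 to 0.00532 in hepatoblasts, from 0.203 to 0.281 in Diff. hepatocytes and from 0.0409 to 0.0490 in mature hepatocytes. The 3 ranges did not overlap. The hepatoblast values rest on 3 to 5 counts of Cidec per library and are a description only. Diff. hepatocytes held a ratio 5.52-fold that of mature hepatocytes (two-sided exact permutation p = 0.0286, 0.0381 after adjustment). The limit on the level of Cideb applies to the size of these ratios.

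Pnpla2 (ENSMUSG00000025509, chr7:141455198-141460743, plus strand) encodes adipose triglyceride lipase, which takes the first fatty acid off triglyceride. Its levels were 19.3, 15.5, 17.5 and 14.6 CPM in the hepatoblast libraries, 129, 144, 143 and 133 CPM in the Diff. libraries, and 102, 118, 82.5 and 139 CPM in mature hepatocytes. Hepatocyte libraries of both kinds lay above all hepatoblast libraries and overlapped each other. It rose 8.21-fold in Diff. hepatocytes (log2 3.04 ± 0.15, edgeR adjusted p = 3.59e-09) and 6.59-fold in mature hepatocytes (log2 2.72 ± 0.15, edgeR adjusted p = 2.24e-09). The log2 difference between Diff. and mature hepatocytes was 0.32, with a 95% interval of 0.02 to 0.61 (edgeR adjusted p = 0.0588).

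Pnpla3 (ENSMUSG00000041653, chr15:84167837-84187236, plus strand), a paralog of Pnpla2 that binds droplets and is known in humans for its association with fatty liver, moved differently. Its counts were low: 76, 131, 114 and 190 in hepatoblasts, 99, 145, 128 and 113 in Diff. hepatocytes, and 6, 8, 54 and 5 in mature hepatocytes. In CPM, hepatoblasts ranged from 2.45 to 6.30, Diff. hepatocytes from 4.28 to 6.24, and mature libraries 1 to 4 stood at 0.411, 0.513, 3.15 and 0.310. Mature library 3 lay within the hepatoblast range and the other mature libraries far below it. Pnpla3 was 4.85-fold higher in Diff. than in mature hepatocytes (log2 2.28 ± 0.57, edgeR adjusted p = 0.00326), and the call was lost without mature library 1 (2.01), 2 (2.04) or 4 (1.96), while the difference was 3.71 without mature library 3. It fell by 1.87 ± 0.57 on the log2 scale in mature hepatocytes against hepatoblasts (edgeR adjusted p = 0.0094), a call lost in 10 of 12 fits that each left out a library and held by -3.31 without mature library 3, with edgeR or DESeq2 adjusted p from 5.75e-06 to 0.0298 over the alternatives that test against no change and 0.064 where the fold threshold was part of the test. Diff. hepatocytes and hepatoblasts differed by 0.41, with a 95% interval of -0.69 to 1.51. An RNA gene of the same strand, Gm49513, covers 6.78% of its exons.

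Per length, the ratio of Pnpla3 to Pnpla2 ran from 0.248 to 0.839 in hepatoblasts and from 0.0647 to 0.0847 in Diff. hepatocytes. In mature libraries 1 to 4 it was 0.00786, 0.00850, 0.0745 and 0.00437. Hepatoblasts stood above both hepatocyte groups, 5.91-fold above Diff. hepatocytes and 37.3-fold above mature hepatocytes as ratios of geometric means (two-sided exact permutation p = 0.0286 for each, 0.0381 after adjustment). The latter difference was -5.22 on the log2 scale and -6.09 without mature library 3. Diff. and mature hepatocytes overlapped through mature library 3 alone (exact permutation p = 0.0571, 0.0685 after adjustment).

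Dgat1 (ENSMUSG00000022555, chr15:76502015-76511953, minus strand) encodes the acyltransferase of the endoplasmic reticulum that esterifies mostly fatty acids from outside the cell. It measured 14.6, 15.8, 16.9 and 16.6 CPM in the hepatoblast libraries, 22.4, 25.7, 24.4 and 22.2 CPM in the Diff. libraries, and 32.1, 32.8, 27.7 and 31.7 CPM in mature hepatocytes. The 3 groups formed a ladder with no overlap at any step. All its differences were under the fold change threshold, although their adjusted p were small: 0.57 ± 0.09 in Diff. hepatocytes (edgeR adjusted p = 9.42e-05), 0.96 ± 0.09 in mature hepatocytes (3.88e-07) and -0.39 ± 0.09 between Diff. and mature hepatocytes (0.00152), the last of which became 0.14 with library totals.

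Dgat2 (ENSMUSG00000030747, chr7:99153658-99182719, minus strand), the unrelated acyltransferase that works on newly made fatty acids and is found on droplets, was the more abundant enzyme. Its levels were 211, 273, 340 and 358 CPM in the hepatoblast libraries, 350, 409, 410 and 407 CPM in the Diff. libraries, and 644, 851, 630 and 979 CPM in mature hepatocytes. Diff. hepatocytes overlapped the hepatoblasts, through hepatoblast library 4 and Diff. library 1, and all mature libraries lay above both groups. Dgat2 rose 2.63-fold in mature hepatocytes against hepatoblasts (log2 1.39 ± 0.18, edgeR adjusted p = 1.02e-05), and the call was lost with library totals (0.55). In Diff. hepatocytes the difference was 0.42 (95% interval 0.03 to 0.80, edgeR adjusted p = 0.0571). Diff. hepatocytes lay 0.98 ± 0.18 below mature hepatocytes on the log2 scale (edgeR adjusted p = 0.00029), just under the threshold, and passed it without Diff. library 2 (-1.002), mature library 1 (-1.06) or mature library 3 (-1.07).

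Per length, Dgat2 exceeded Dgat1 in every library. The ratio ranged from 14.3 to 21.4 in hepatoblasts, from 15.5 to 18.2 in Diff. hepatocytes and from 19.9 to 30.6 in mature hepatocytes. Diff. hepatocytes lay below all mature libraries (1.48-fold between geometric means, exact permutation p = 0.0286, 0.0381 after adjustment), while hepatoblasts overlapped both groups. The exact permutation p of hepatoblasts was 0.371 against Diff. hepatocytes and 0.0857 against mature hepatocytes.

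Mttp (ENSMUSG00000028158, chr3:138089854-138144968, minus strand) encodes the large subunit of the microsomal triglyceride transfer protein, which loads apolipoprotein B with lipid. It measured 199, 303, 334 and 329 CPM in the hepatoblast libraries, 312, 462, 367 and 391 CPM in the Diff. libraries, and 490, 467, 507 and 482 CPM in mature hepatocytes. Hepatoblasts and Diff. hepatocytes overlapped, and the 4 mature libraries lay close together above both. None of its differences reached the fold change threshold. They were 0.39 ± 0.16 in Diff. hepatocytes (edgeR adjusted p = 0.0434), 0.74 ± 0.16 in mature hepatocytes (0.000808), which turned to -0.10 with library totals, and -0.35 ± 0.16 between Diff. and mature hepatocytes (0.0673), which turned to 0.18. Exons of Trmt10a on the opposite strand cover 7.36% of the exons of Mttp. Trmt10a measured 9.79, 13.2 and 5.81 CPM on average in hepatoblasts, Diff. and mature hepatocytes.

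**Figure D3:**
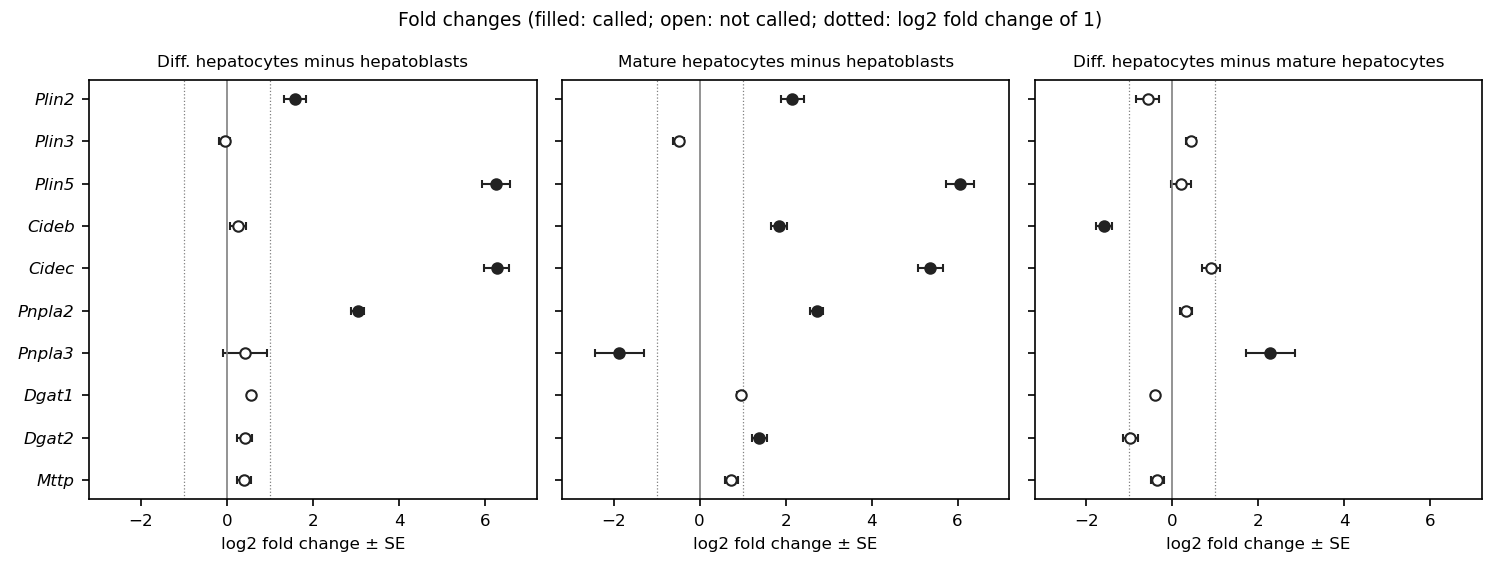
Log2 fold changes of the 10 genes in the 3 comparisons, with bars of 1 SE on either side, filled points for called genes, open points for the others and dotted lines at a log2 fold change of 1 in each direction. Plin5 (6.26 and 6.05) and Cidec (6.27 and 5.37) lie farthest from 0 against hepatoblasts, and Cideb (-1.58) and Pnpla3 (2.28) are the filled points between Diff. and mature hepatocytes. Cidec passed the filter only through the hepatocyte groups, so its filled points against hepatoblasts are a description.

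**Figure D4:**
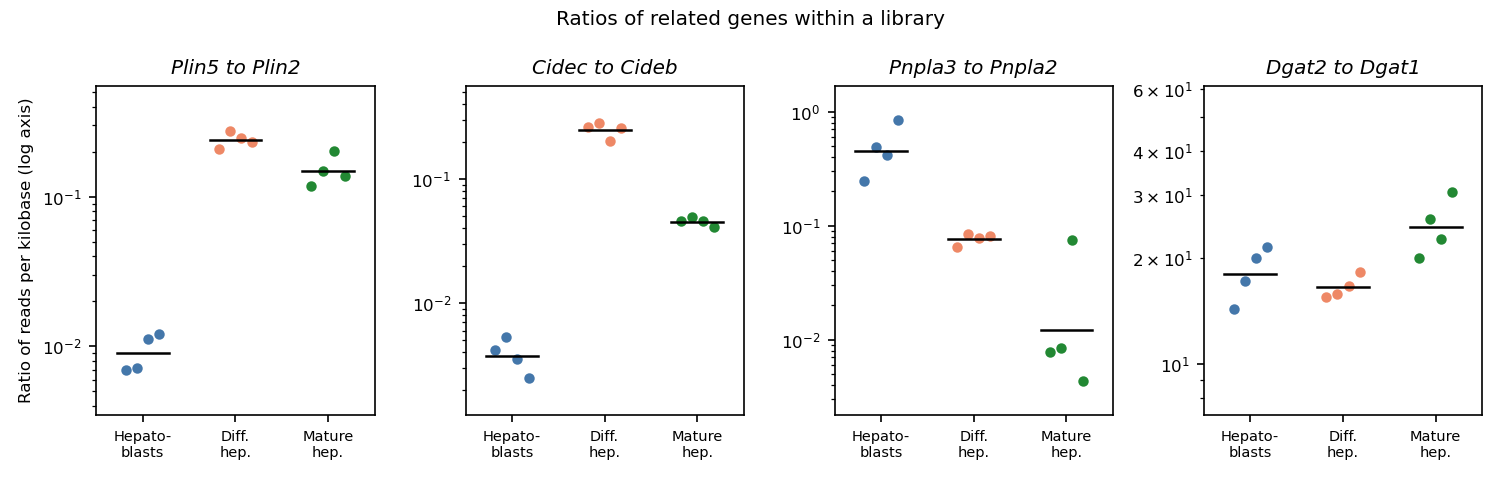
Ratio of reads per kilobase of related genes within each library on log axes, with 1 point per library and a bar at the geometric mean of 4 libraries. Plin5 to Plin2 and Cidec to Cideb are highest in Diff. hepatocytes (0.240 and 0.250), Pnpla3 to Pnpla2 is highest in hepatoblasts (0.454), and Dgat2 to Dgat1 has geometric means of 18, 16.5 and 24.4 in hepatoblasts, Diff. and mature hepatocytes.

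Ordered by level per length, the top places went to the same trio in each group. Dgat2 was the highest of the 10 in hepatoblasts (95.8 ± 21.8 RPKM, SD, n = 4), followed by Plin2 (50.4 ± 4.49) and Mttp (46.9 ± 10.1), which changed places between libraries. In Diff. hepatocytes the order was Plin2 (151 ± 21.7 RPKM), Dgat2 (128 ± 9.53) and Mttp (61.7 ± 10.1), in every library. In mature hepatocytes Dgat2 (252 ± 54.8 RPKM) and Plin2 (224 ± 121) changed places between libraries, and Mttp (78.4 ± 2.72) was next in all 4. The lowest were Cidec in hepatoblasts (0.0640 ± 0.0136 RPKM) and Pnpla3 in Diff. and mature hepatocytes (3.52 ± 0.536 and 0.708 ± 0.887 RPKM). Pnpla2 and Plin5 changed places between libraries in both hepatocyte groups.

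Some libraries moved many of the 10 genes together. Hepatoblast library 1 was the lowest of its group for 9 of the 10 genes and the highest for Pnpla2. It also held the highest sum of 10 erythroid markers, 3414 CPM where the other hepatoblast libraries held 501 to 757, and the highest sum of 9 macrophage markers, 378 CPM. Leaving it out changed 0 of the 30 calls. Diff. library 1 was the lowest of its group for 8 of the 10 genes and library 2 the highest for 8. Library 1 also held the highest bile duct sum of the Diff. group, 286 CPM where the others held 91.2 to 134. Its stellate and mesenchymal sum (2657 against 1202 to 1832 CPM) and macrophage sum (184 against 27.1 to 89.2 CPM) were highest too. The erythroid and endothelial sums were highest in Diff. library 2 (112 and 10.8 CPM). The part of the marker levels in these differences was not tested.

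Markers of other cells also differed between the groups. Summed erythroid markers stood at 501 to 3414 CPM in the hepatoblast, 82.4 to 112 CPM in the Diff. and 176 to 216 CPM in the mature libraries. Summed macrophage markers stood at 89.7 to 378, 27.1 to 184 and 141 to 270 CPM, and 8 endothelial markers at 34.6 to 138, 4.93 to 10.8 and 111 to 209 CPM. The sum of 10 stellate and mesenchymal markers was 1275 to 2306, 1202 to 2657 and 69.4 to 101 CPM, and that of 6 bile duct markers 13.7 to 16.2, 91.2 to 286 and 15.4 to 40.7 CPM. Of 6 adipocyte markers, which bear on genes of fat storage, Adipoq, Lep, Retn and Plin1 did not exceed 0.474 CPM in any library, and Lep had 0 counts in all hepatoblast and mature libraries. The adipocyte sum of 3044 to 3650 CPM in mature hepatocytes was nearly all Car3 (3043 to 3650 CPM), a gene that the liver also expresses. The part of these other cells in the results was not tested.

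A further 88 genes of the same processes were grouped in 5 lists, of which 85 were tested. In Diff. hepatocytes against hepatoblasts 30 were called higher and 5 lower, where 14.9% and 14% of all genes were, with a median log2 fold change of 0.48 beside -0.01 over all genes. With library totals the split was 26 and 9. In mature hepatocytes against hepatoblasts the counts were 50 higher and 7 lower, where 20.1% and 24.7% of all genes were called, with a median of 1.48 beside -0.15. With library totals they were 38 and 14, beside 2007 and 7920 of all genes tested. In Diff. against mature hepatocytes 8 were higher and 33 lower, where 20.2% and 15.6% of all genes were called, with a median of -0.52 beside 0.09. With library totals 17 were higher and 24 lower, beside 5500 and 1776 of all genes tested. The lists were made with earlier results of these data known, and no test of a whole list was run. Cidea, Fitm1, Agpat4, Mogat1 and Ces3b had no more than 10 counts in any library of at least 1 group. They passed the filter only through the groups where they were higher, so their calls against the low groups are counted as a description.

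**Figure D5:**
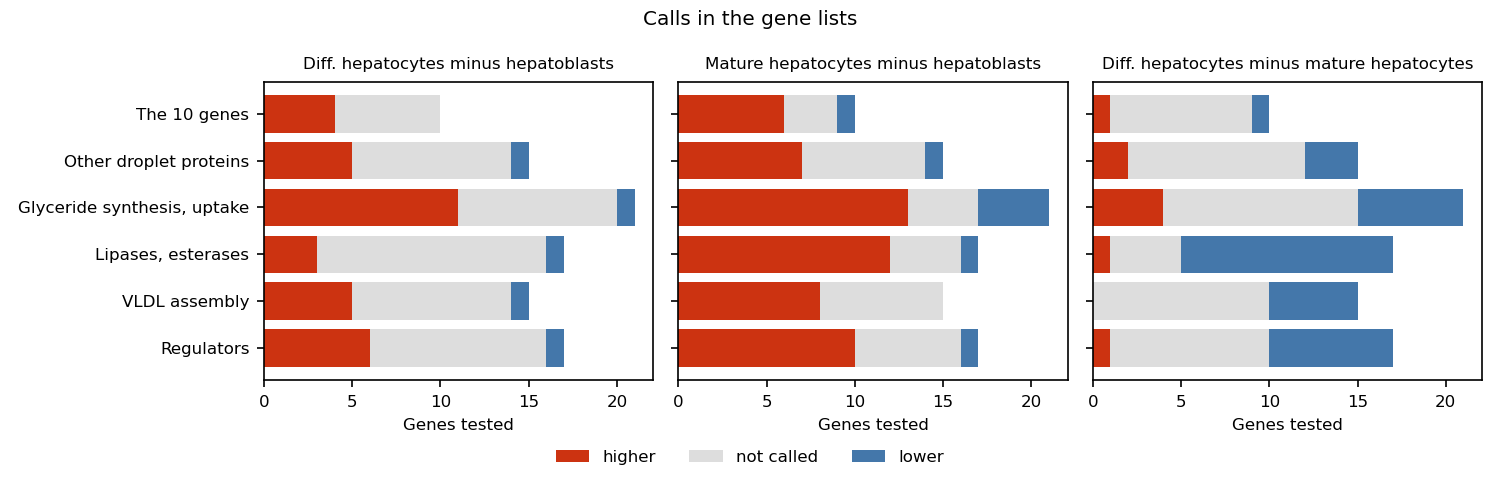
Number of genes called higher, called lower or not called in the 10 genes and in the 5 lists, for the 3 comparisons. Lipases and esterases show the widest gap between Diff. and mature hepatocytes, with 12 of 17 called lower in Diff. hepatocytes and 1 higher. The 12 include Ces3b, which passed the filter only through mature hepatocytes. In that comparison 15.6% of all genes were called lower and 20.2% higher.

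Of 15 other droplet proteins tested, 5 were called higher and 1 lower in Diff. hepatocytes against hepatoblasts (median 0.18), 7 and 1 in mature hepatocytes (0.99), and 2 higher and 3 lower in Diff. against mature hepatocytes (-0.24). Over all genes, 14.9% and 14%, 20.1% and 24.7%, and 20.2% and 15.6% were called higher and lower in these comparisons. The counts of the last comparison lie near the shares over all genes. Hsd17b13, a hydroxysteroid dehydrogenase of the liver droplet, stood at 6.47 ± 2.91, 789 ± 163 and 474 ± 65.5 CPM in hepatoblasts, Diff. and mature hepatocytes (SD, n = 4), a log2 rise of 6.93 ± 0.35 and 6.20 ± 0.34. Plin4, another perilipin, stood at 0.417, 9.70 and 6.30 CPM on average and rose by 4.53 ± 0.28 and 3.90 ± 0.28. For both, the mean was higher in Diff. than in mature hepatocytes, by 0.73 and 0.62 on the log2 scale, and neither difference was called. Fitm1, which helps to partition triglyceride into droplets, went the other way, at 0.254, 0.0558 and 37.0 CPM, with at most 2 counts in any Diff. library. Bscl2, which encodes seipin and organises droplet formation, was lower in Diff. than in mature hepatocytes (17.2 ± 2.51 against 60.1 ± 2.54 CPM, log2 -1.80 ± 0.10). Hilpda, an inhibitor of adipose triglyceride lipase, was higher (13.3 ± 0.808 against 4.89 ± 1.48 CPM, log2 1.45 ± 0.19).

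Of 21 genes of triglyceride synthesis and fatty acid uptake, 11 were called higher and 1 lower in Diff. hepatocytes against hepatoblasts (median 1.08), 13 and 4 in mature hepatocytes (1.75), and 4 higher and 6 lower in Diff. against mature hepatocytes (0.09). The shares of all genes called higher and lower were 14.9% and 14%, 20.1% and 24.7%, and 20.2% and 15.6%. Lpin1, a phosphatidate phosphatase that makes diacylglycerol, stood at 28.3 ± 2.12 CPM in hepatoblasts, 292 ± 39.9 in Diff. and 217 ± 129 in mature hepatocytes, and rose by 3.37 ± 0.32 and 2.94 ± 0.32 on the log2 scale. Cd36, a fatty acid transporter of the plasma membrane, stood at 4.95 ± 3.72, 35.4 ± 11.4 and 32.5 ± 17.3 CPM and rose by 2.84 ± 0.47 and 2.71 on the log2 scale. Mogat2, an acyltransferase of the monoacylglycerol pathway, fell from 92.6 ± 19.5 CPM in hepatoblasts to 2.11 ± 0.777 in Diff. and 0.764 ± 0.181 in mature hepatocytes. Both the fatty acid binding protein Fabp1 (242 ± 69.6 against 6520 ± 371 CPM) and the bile acid and fatty acid ligase Slc27a5 (122 ± 27.9 against 1406 ± 153 CPM) were lower in Diff. than in mature hepatocytes, as was the glycerol phosphate acyltransferase Gpat4 (89.4 ± 2.66 against 305 ± 44.4 CPM).

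Of 17 lipases, esterases and their cofactors, 3 were called higher and 1 lower in Diff. hepatocytes against hepatoblasts (median 0.18), 12 and 1 in mature hepatocytes (2.30), and 1 higher and 12 lower in Diff. against mature hepatocytes (-2.13). Pnpla2 itself is not counted here. Among all genes tested, 14.9% and 14%, 20.1% and 24.7%, and 20.2% and 15.6% were called higher and lower in the same order. Carboxylesterases of the endoplasmic reticulum carried the largest differences: Ces3a stood at 0.854 ± 0.0828, 0.666 ± 0.196 and 2345 ± 265 CPM in hepatoblasts, Diff. and mature hepatocytes, Ces3b at 0.166, 0.191 and 742 CPM, Ces1f at 1.05, 1.07 and 664 CPM, and Ces1e at 2.67, 0.812 and 256 CPM. Ces3b had at most 7 counts in a hepatoblast library and 5 in a Diff. library. It passed the filter only through the mature group, so its difference is a description. Members of this family resemble each other and lie in a cluster, so that the split of reads between them is uncertain. Pnpla8, a phospholipase, rose by 1.59 ± 0.10 and 2.86 on the log2 scale in Diff. and mature hepatocytes against hepatoblasts (23.5, 70.6 and 170 CPM), and the lipase Ddhd2 by 1.52 ± 0.17 and 1.89 (11.0, 31.4 and 40.6 CPM).

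Of 15 genes of VLDL assembly and secretion, 5 were called higher and 1 lower in Diff. hepatocytes against hepatoblasts (median 0.34), 8 and 0 in mature hepatocytes (1.07), and 0 higher and 5 lower in Diff. against mature hepatocytes (-0.70). For all genes the shares called higher and lower were 14.9% and 14%, 20.1% and 24.7%, and 20.2% and 15.6%. Apoc3, an apolipoprotein that restrains lipoprotein lipase, rose stepwise from 3.50 ± 0.622 CPM in hepatoblasts to 55.0 ± 10.7 in Diff. and 2054 ± 254 in mature hepatocytes. Apoe stood at 3310 ± 665, 10028 ± 1133 and 28472 ± 5324 CPM and Tm6sf2, which acts in the lipidation of VLDL, at 2.67 ± 0.752, 11.4 ± 1.43 and 25.5 ± 4.23 CPM, and both were called in all 3 comparisons. Mia3, which exports large cargo from the endoplasmic reticulum, was lower in Diff. than in mature hepatocytes (84.3 ± 6.32 against 261 ± 49.9 CPM, log2 -1.63 ± 0.12).

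Of 17 regulators, 6 were called higher and 1 lower in Diff. hepatocytes against hepatoblasts (median 0.63), 10 and 1 in mature hepatocytes (1.31), and 1 higher and 7 lower in Diff. against mature hepatocytes (-0.47). Beside them, 14.9% and 14%, 20.1% and 24.7%, and 20.2% and 15.6% of all genes were called higher and lower. Ppara, the nuclear receptor of fatty acid oxidation, stood at 34.2 ± 7.94 CPM in hepatoblasts, 138 ± 19 in Diff. and 241 ± 71.0 in mature hepatocytes, and its partner Rxra at 99.5 ± 13.6, 322 ± 20.4 and 750 ± 110 CPM. Pparg, known for fat storage, stood at 0.693 ± 0.383, 4.62 ± 0.931 and 17.9 ± 5.21 CPM and Insig2, which holds sterol regulatory proteins in the endoplasmic reticulum, at 11.3 ± 1.29, 50.0 ± 8.23 and 242 ± 155 CPM. All 4 rose in both hepatocyte groups against hepatoblasts. Mlxipl, which encodes the carbohydrate response factor ChREBP, was 47.2 ± 8.87 CPM in Diff. and 424 ± 120 CPM in mature hepatocytes (log2 -3.17 ± 0.25, edgeR adjusted p = 1.28e-07).

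The genes with the most similar pattern to each of the 10, by Pearson's r of log2 CPM over the 12 libraries among genes with a mean of at least 10 CPM, are given as a description, since the 3 groups fix most of each correlation. They were Ddi2 (0.98) and Bcl6 (0.971) for Plin2, Amy1 (0.996) and H6pd (0.995) for Plin5, and Stau2 (0.964) and Epm2aip1 (0.963) for Plin3. For Cidec they were Serpina3m (0.996) and Apoa4 (0.995), and for Cideb C1rl (0.996) and Slc6a13 (0.992). Pnpla2 was most like Tax1bp1 (0.995) and Dusp3 (0.993), and Pnpla3 like Zfp217 (0.972) and Cdh1 (0.965). For Dgat1 they were Fitm2 (0.995), itself a droplet protein, and Ndufs3 (0.993), for Dgat2 Tesk2 (0.99) and Krcc1 (0.99), and for Mttp Nectin3 (0.964) and Cped1 (0.962).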

How the data were processed

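Poly(A) RNA of 4 libraries per group was sequenced in single reads of 75 bases. The authors aligned the reads to GRCm38 and deposited raw counts per gene in 1 table, and the counts carry no normalization. The submitters' processing notes name FastQC 0.11.2, STAR 2.5.2b, Picard 2.10.2 and DESeq2 1.22.2. The study's methods describe strand-specific libraries, and the strand setting of the counting is not given in the sources used here. Exon positions and lengths came from GENCODE M21, in which 53620 of the 53715 genes were found.

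The 17779 genes whose highest count was over 10 were fitted with edgeR 4.0.16 (R 4.3.3, limma 3.58.1, TMM scaling, quasi-likelihood test), with all 12 libraries in 1 model by group and Benjamini-Hochberg adjustment over all genes tested. Calls followed the thresholds of the study's methods, adjusted p below 0.01 and a log2 fold change beyond 1 either way. TMM factors ran from 1.23 to 1.44 in hepatoblasts, from 1.03 to 1.08 in Diff. hepatocytes and from 0.677 to 0.778 in mature hepatocytes. Library totals lay between 19581551 and 25216977, and no pair of libraries agreed within sampling noise (chi-square of 5.80 or more per gene). Ratios of members within a library were compared by two-sided exact permutation tests over 70 assignments. Their adjustment ran over 12 comparisons, including those of Cidec to Cideb against hepatoblasts. All 10 members were named. From each list and comparison, up to 3 called genes with the largest absolute log2 fold change and a mean of at least 5 CPM could be named, and the 2 genes most like each member were taken among those with a mean of at least 10 CPM. Members and lists were chosen with earlier results of these data known. Alternatives were DESeq2 1.42.0, other scalings, filters and thresholds, a replicate block and leaving out each library.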

Additional observations from a re-analysis of the deposited data

Results flagged for a closer look

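In 42 sets of 4 libraries, the levels and ratios of the 10 genes in each group, the farthest library was compared with the others by Dixon's criterion. A library stood apart in 4 sets, where chance gives about 1 in 20, or 2.1. For Plin2, mature library 1 stood above the others at 1419 CPM. For Pnpla3, mature library 3 stood above the others at 3.15 CPM, and the same library stood above the others in the ratio of Pnpla3 to Pnpla2 per length, at 0.0745. For Dgat2, Diff. library 1 stood below the others at 350 CPM.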

How the results depend on the processing

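The number of the 10 genes called stayed within 1.5 times that reported under every alternative run for Diff. (4 when each library was left out in turn) and mature hepatocytes (6 to 8) against hepatoblasts. In Diff. against mature hepatocytes it was 2 and became 1 when the fold threshold was part of the test (glmTreat), 1 with at least 10 counts in every sample, where Cidec and Pnpla3 were not tested, 6 at adjusted p below 0.05 whatever the fold, and 1 to 3 when each library was left out. At that looser threshold 59 list genes were called in Diff. hepatocytes against hepatoblasts (35 reported) and 66 in Diff. against mature hepatocytes (41 reported). The share of all genes at that threshold was not computed, so these counts and the 6 above have no background beside them. Leaving out each library gave 32 to 36, 52 to 58 and 40 to 44 list genes in Diff. against hepatoblasts, mature against hepatoblasts and Diff. against mature hepatocytes, and 9 to 10 ratio comparisons without overlap (9 reported). The 9 include those of Cidec to Cideb against hepatoblasts, which are a description only, and no share over other pairs of genes was computed.

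Library totals in place of TMM factors moved the median of all genes by -0.32, -0.85 and 0.53 on the log2 scale in the 3 comparisons, and calls from 2648 higher and 2497 lower to 1985 and 3621 in Diff. hepatocytes against hepatoblasts, from 3580 and 4391 to 2007 and 7920 in mature hepatocytes against hepatoblasts, and from 3586 and 2776 to 5500 and 1776 in Diff. against mature hepatocytes. Under totals the sign turned for Cideb in Diff. hepatocytes against hepatoblasts (-0.052), Mttp in mature hepatocytes against hepatoblasts (-0.10), and Mttp (0.18) and Dgat1 (0.14) in Diff. against mature hepatocytes, none of them called. Under totals Cideb (0.99) and Dgat2 (0.55) lost and Plin3 (-1.33) gained a call in mature hepatocytes against hepatoblasts, and Cidec gained one in Diff. against mature hepatocytes (1.44). Plin3 in Diff. hepatocytes ranged from -0.14 to 0.001 when each library was left out, turning sign without hepatoblast replicate 4. The glmTreat test ended the calls of Plin2 in Diff. hepatocytes against hepatoblasts (adjusted p = 0.0278), Pnpla3 (0.064) and Dgat2 (0.016) in mature hepatocytes against hepatoblasts and Pnpla3 in Diff. against mature hepatocytes (0.0249). Dgat1 in mature hepatocytes against hepatoblasts was called without mature library 3, at 1.00.

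Same-numbered libraries of Diff. hepatocytes and hepatoblasts had correlations of -0.06 to 0.32 in their deviations from the group means, those of mature hepatocytes and hepatoblasts -0.03 to 0.09 and those of Diff. and mature hepatocytes -0.08 to 0.09. In the first comparison replicates 1, 3 and 4 correlated best with their own number (0.32, 0.25 and 0.18) and replicate 2 did not (-0.06), a hint from the data only. Since not every pair was correlated and no label ties the numbers to a shared litter or day, they were not taken as a pairing. With a replicate block the calls were 4, 7 and 2 of the 10 genes and 35, 57 and 42 list genes, 11 ratio comparisons kept 1 direction in every pair, and 0 of 30 calls of the 10 genes changed. The causes of these changes were not tested. Depth limits Cidec in hepatoblasts, with 3 to 5 counts per library, and Pnpla3 in mature hepatocytes, with 5 to 54.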

Other observations

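Lipoprotein lipase (Lpl), which releases fatty acids from circulating lipoproteins and is kept low in adult liver, was chosen after its values were seen. Hepatoblasts held 390 ± 71.7 CPM, Diff. hepatocytes 937 ± 90 and mature hepatocytes 18.7 ± 11.6 (mean ± SD of 4 libraries). The level was higher in Diff. hepatocytes than in hepatoblasts (log2 1.27, edgeR adjusted p = 0.00426) and far higher than in mature hepatocytes (log2 5.64, edgeR adjusted p = 4.43e-08). It was the only gene of the lipase and esterase list called higher in Diff. than in mature hepatocytes.

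The mature libraries, in which Plin2 and Pnpla3 varied most, also varied in regulators of lipogenesis. These too were chosen after their values were seen. In mature libraries 1 to 4, Insig2 stood at 439, 114, 292 and 124 CPM and Srebf1, which encodes the lipogenic factor SREBP-1, at 367, 473, 532 and 966 CPM. Library 1, highest in Plin2 (1419 CPM), was highest in Insig2 and lowest in Srebf1, and library 3, highest in Pnpla3 (3.15 CPM), was the highest in neither. With 4 libraries no relation between these genes was tested.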
